A study of Homo sapiens with 12 samples.

Results

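The cholesterol and fatty acid synthesis genes described here are 29 genes listed by symbol, out of 60708 gene identifiers quantified in mRNA sequencing of a human cell line. The list names genes by function and was chosen with earlier results of these data known, and all 29 genes had enough counts to be among the 15388 genes tested. By role they are 7 genes of the mevalonate steps, 11 genes of the sterol steps, 5 genes of SREBP control, the sterol transfer gene STARD4 and 5 fatty acid genes. The cells were hTERT RPE-1, cells of the human retinal pigment epithelium made immortal by added telomerase. Of 4 clonal stable lines, mCherry_3 and mCherry_4 overexpressed the red fluorescent protein mCherry, and LmnB1_6 and LmnB1_16 overexpressed mCherry-LmnB1, in which mCherry is joined to lamin B1, a filament protein that lines the nucleus. All 4 lines grew in medium with fetal bovine serum, penicillin-streptomycin and hygromycin B, and all were given 0.05 ug/mL doxycycline for 24 hours. Each line is a single clone with 3 libraries, so a construct is represented by 2 clones and 6 libraries. The question addressed is whether transcripts of this pathway differ between lines with the lamin B1 fusion and lines with mCherry alone.

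Cells build cholesterol from acetyl-CoA. The mevalonate steps make farnesyl diphosphate, squalene synthase (FDFT1) commits it to sterols, and a series of enzymes of the endoplasmic reticulum and the inner nuclear membrane turns lanosterol into cholesterol. When membrane sterol is low, the sensor SCAP carries the membrane-bound factors SREBP-1 and SREBP-2 (genes SREBF1 and SREBF2) to the Golgi, where they are cut free and switch on genes of both pathways, and INSIG proteins hold SCAP back when sterol is plentiful. Fatty acid synthesis starts from citrate cut by ACLY, and desaturases then place double bonds in the finished chains.

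The libraries held 20.6 to 29.5 M estimated counts. Levels are in CPM (counts corrected for library size and scaled between libraries with TMM factors), as the mean ± SD of 3 libraries per clone (n = 3) unless stated otherwise, and levels of different genes are compared only as TPM, which are scaled by length. LMNB1, which checks the labels, stood at 84.98 ± 7.12 CPM in mCherry_3, 161 ± 7.29 in mCherry_4, against 3976 ± 164 in LmnB1_6 and 3374 ± 273 in LmnB1_16, and gene-level counts do not separate the construct from the endogenous gene. Of 13 pigment epithelium markers, 9 were tested, RPE65 and TYR had no counts in any library, and the summed level ran from 923.8 to 1389 CPM in the mCherry libraries and from 599.5 to 889 CPM in the LmnB1 libraries. Markers of hepatocytes, adipocytes and leukocytes (5 genes each) summed to at most 0.913, 1.23 and 0.4699 CPM in any library. The p-values set a difference against the spread of these libraries only. In the contrasts of clones that is the spread within clones. In the test between the constructs it also holds differences between clones of a construct. The 3 libraries of each clone share that clone, so they do not count as independent samples of its construct.

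The test between the constructs called 3 genes of the pathway. Of the 29 genes, LSS, TM7SF2 and STARD4 were lower in the LmnB1 libraries and 0 were higher, against 17.8% of all tested genes called in either direction, 8.58% higher and 9.25% lower (edgeR, adjusted p under 0.05). In this comparison 13 of the 29 genes (44.8%) and 34.3% of all tested genes had an unadjusted p under 0.05. The median log2 fold change of LmnB1 over mCherry was -0.00 for the 29 genes and 0.00 for all tested genes. In CPM, 0 of the 29 genes had 6 LmnB1 libraries that all lay on the same side of the 6 mCherry libraries, whereas 8.66% of all tested genes did, 4.85% with LmnB1 lower and 3.80% with LmnB1 higher. In bulk RNA, fewer cells that express a gene and less RNA per cell cannot be told apart. By the deposited TPM, LSS alone separated the constructs in that way. The count of 3 rests on few libraries. It was 0 without mCherry_3 replicate 3, LmnB1_6 replicate 1 or LmnB1_6 replicate 2, it was 1 without mCherry_3 replicate 1, mCherry_3 replicate 2 or LmnB1_6 replicate 3, and it was 5 without mCherry_4 replicate 1 or LmnB1_16 replicate 2 and 9 without mCherry_4 replicate 2. With counts summed per clone, which sets 2 clones against 2, 0 genes were called (edgeR, smallest adjusted p = 0.778).

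The genes differed in how far the 4 clones lay apart. The ratio of the highest to the lowest of the 4 clone means, whatever their construct, had a median of 1.28 over the 29 genes, of 1.18 over the 18 mevalonate and sterol enzymes, of 1.43 over all tested genes and of 1.299 over tested genes at least as abundant as the least abundant of the 29. HMGCS1 had the smallest ratio, 1.07, and TM7SF2 and SCD, at 4.23 and 2.56, were above 2. The plot of every library shows most mevalonate genes close to 0 in all clones and a few genes on which the clones part.

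**Figure D1:**
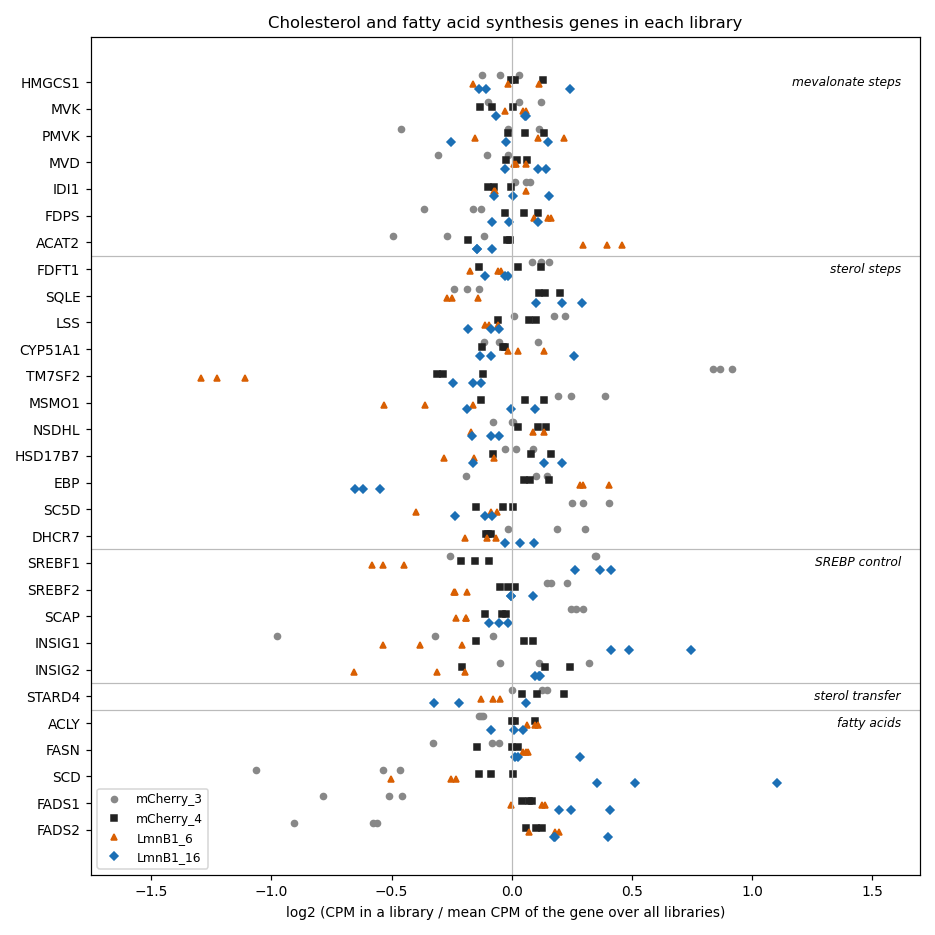
Level of each of the 29 genes in each of the 12 libraries, as log2 of its CPM over the gene's mean CPM in all libraries, ordered by role, with 1 symbol per clone. TM7SF2 and SCD have the widest ranges, and no gene separates all LmnB1 libraries from all mCherry libraries.

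Promoter sequence was available for 25 of the 29 genes in RefSeq (GRCh38.p14), as windows of 250 bases before and 50 bases after a start, and FASN, SQLE, FDFT1 and ACAT2 are named without one. On both strands, CCAAT, the core of sites for the factor NF-Y, a known partner of SREBPs, was found in windows of 19 of the 25 genes, against 39.7% of all genes with a window. By window this was 22 of 33, against 34.6% of all windows. TCACNCCAC, a form of the sterol regulatory element, was found only for SREBF2 among the 25, against 1.39% of all genes, and CACGTG for INSIG1, LSS, SC5D and SCAP, against 8.77% of all genes. These are letter matches in short windows and not measured binding. The 250 bases before the start are printed for the genes that bound the range of behaviour, namely TM7SF2 and SCD, which had the widest range over clones, INSIG1, the SREBP control gene with the highest ratio (1.95), SREBF2, which held the only match to TCACNCCAC, and HMGCS1, the gene with the narrowest range. Capitals mark a match to TCACNCCAC, a match to CCAAT, which reads ATTGG where it lies on the opposite strand, or a match to CACGTG.
TM7SF2 (chr11:65111622-65111871, plus strand): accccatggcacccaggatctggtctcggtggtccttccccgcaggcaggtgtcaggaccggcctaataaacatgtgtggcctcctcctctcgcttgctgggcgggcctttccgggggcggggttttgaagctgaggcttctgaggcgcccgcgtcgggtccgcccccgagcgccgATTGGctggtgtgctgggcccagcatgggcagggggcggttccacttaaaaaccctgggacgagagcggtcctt
SCD (chr10:100346983-100347232, plus strand): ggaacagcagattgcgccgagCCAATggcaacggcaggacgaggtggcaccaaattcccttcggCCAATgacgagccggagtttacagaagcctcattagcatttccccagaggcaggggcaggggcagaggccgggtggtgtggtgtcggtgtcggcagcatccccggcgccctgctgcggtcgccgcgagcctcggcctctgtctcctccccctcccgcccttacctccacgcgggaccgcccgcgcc
INSIG1 (chr7:155297628-155297877, plus strand): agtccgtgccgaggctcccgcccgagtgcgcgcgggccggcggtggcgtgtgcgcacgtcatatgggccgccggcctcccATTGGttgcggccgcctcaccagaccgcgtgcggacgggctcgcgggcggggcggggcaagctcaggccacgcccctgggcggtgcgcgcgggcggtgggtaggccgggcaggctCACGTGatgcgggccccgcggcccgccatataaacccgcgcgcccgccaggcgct
SREBF2 (chr22:41832855-41833104, plus strand): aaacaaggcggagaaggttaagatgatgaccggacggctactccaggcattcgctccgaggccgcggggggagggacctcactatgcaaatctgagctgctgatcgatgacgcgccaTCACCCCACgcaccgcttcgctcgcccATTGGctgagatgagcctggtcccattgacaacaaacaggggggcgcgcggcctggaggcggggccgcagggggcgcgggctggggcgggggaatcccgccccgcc
HMGCS1 (chr5:43313413-43313662, minus strand): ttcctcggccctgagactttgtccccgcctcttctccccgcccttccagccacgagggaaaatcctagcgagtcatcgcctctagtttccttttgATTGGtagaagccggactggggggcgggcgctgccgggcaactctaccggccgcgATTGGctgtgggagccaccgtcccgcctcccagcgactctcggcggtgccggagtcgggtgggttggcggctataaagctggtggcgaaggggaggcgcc
TM7SF2 holds a single CCAAT match, 74 bases before the start. SCD has a pair, at 229 and 186 bases, and the printed HMGCS1 window a pair at 155 and 100 bases. HMGCS1 has another start, whose window (chr5:43313182-43313431, minus strand) is not printed and held no match.

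The mevalonate steps were the most even group. None of the 7 genes was called between the constructs, where 17.8% of all tested genes were called. The median log2 fold change of the 7 was 0.05, against 0.00 for all tested genes. HMGCS1, which joins acetyl-CoA to acetoacetyl-CoA, ranged from 31.01 to 41.1 CPM over the 12 libraries and had clone means from 33.6 to 35.9. The kinases MVK and PMVK, the decarboxylase MVD and the isomerase IDI1 were called in none of the contrasts, with highest-to-lowest ratios of 1.07, 1.12, 1.16 and 1.08. By TPM the most abundant gene of this group was FDPS, farnesyl diphosphate synthase, with a mean of 216. FDPS measured 99.9, 118 and 115 CPM in mCherry_3, 126, 133 and 139 in mCherry_4, against 144, 143 and 137 in LmnB1_6 and 128, 121 and 139 in LmnB1_16. The mCherry_3 libraries were the lowest, and those of the other clones overlapped. FDPS was higher in mCherry_4 than in mCherry_3 (log2 fold change 0.26, SE 0.07, edgeR adjusted p = 0.00652) and higher in LmnB1_6 than in the mCherry clones (0.22, SE 0.06, edgeR adjusted p = 0.00502). ACAT2, the cytosolic thiolase that makes acetoacetyl-CoA, stood apart in LmnB1_6. Its library values, given after they were seen, were 42.6, 55.4 and 49.7 CPM in mCherry_3, 52.9, 59.1 and 59.7 in mCherry_4, against 78.9, 82.4 and 73.7 in LmnB1_6 and 54.3, 56.7 and 54.3 in LmnB1_16. All LmnB1_6 libraries were above all others, and LmnB1_16 lay among the mCherry clones. The contrast of LmnB1_16 with LmnB1_6 was -0.51 on the log2 scale (SE 0.08, edgeR adjusted p = 1.37e-04). In exons, 397 bases of ACAT2 overlap TCP1 on the opposite strand, and since the sources used here do not give the strand of the libraries, reads from such stretches are not told apart.

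Of the 11 sterol-step genes, LSS and TM7SF2 were lower in the LmnB1 libraries and 0 were higher, against 9.25% and 8.58% of all tested genes. The median log2 fold change of the 11 was -0.12, against 0.00 for all tested genes. The most abundant of the 11 by TPM (mean 120.3) was FDFT1, which condenses farnesyl diphosphate to squalene. FDFT1 measured 136, 142 and 139 CPM in mCherry_3, 130.3, 116 and 139 in mCherry_4, against 124, 123 and 113 in LmnB1_6 and 125, 118 and 126 in LmnB1_16. The groups overlapped through mCherry_4 replicate 2, and the difference between constructs did not pass the test (log2 fold change -0.14, SE 0.05, edgeR adjusted p = 0.0969). LSS, the cyclase that folds squalene epoxide into lanosterol (chromosome 21, 46188141 to 46228824, minus strand, GRCh38), measured 80.8, 93.5 and 90.8 CPM in mCherry_3, 85.97, 77.2 and 84.3 in mCherry_4, against 74.4, 75.2 and 77.1 in LmnB1_6 and 77.3, 70.6 and 75.5 in LmnB1_16. The LmnB1 libraries were all low, and only LmnB1_16 replicate 1 reached the lowest mCherry library. LSS fell 1.14-fold (log2 fold change -0.19, SE 0.05, edgeR adjusted p = 0.0313), and the 10 nearest tested protein-coding genes had a median of 0.22. Leaving out mCherry_3 replicate 2 or 3 or LmnB1_6 replicate 1, 2 or 3 put its edgeR adjusted p at 0.0759, 0.0795, 0.0629, 0.0613 and 0.0506.

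TM7SF2 and LBR encode the pair of sterol C14 reductases, which perform the same step, TM7SF2 in the endoplasmic reticulum and LBR (lamin B receptor) at the inner nuclear membrane, where it also binds lamin B. TM7SF2 (chromosome 11, 65111845 to 65116384, plus strand, GRCh38) measured 42.6, 44.2 and 41.7 CPM in mCherry_3, 18.9, 19.2 and 21.5 in mCherry_4, against 9.54, 10.8 and 10.001 in LmnB1_6 and 21.4, 19.7 and 20.9 in LmnB1_16. All mCherry_3 libraries were above and all LmnB1_6 libraries below every other library, while mCherry_4 and LmnB1_16 covered the same range. The construct difference was 2.04-fold lower in LmnB1 (log2 fold change -1.03, SE 0.30, edgeR adjusted p = 0.0365), and the difference between the mCherry clones alone was of the same size (mCherry_4 over mCherry_3 -1.11, SE 0.08, edgeR adjusted p = 2.23e-08). LmnB1_16 was above LmnB1_6 by 1.03 (SE 0.09, edgeR adjusted p = 5.67e-08). Without clone mCherry_3 the construct difference was -0.36 (edgeR adjusted p = 0.509), and the call was lost on leaving out any single library of mCherry_3 or LmnB1_6 (edgeR adjusted p between 0.0725 and 0.0849). The 10 nearest tested protein-coding genes had medians between -0.10 and 0.11 in the 5 contrasts.

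LBR, which is not among the 29, measured 134, 131 and 129 CPM in mCherry_3, 203, 187 and 194 in mCherry_4, against 202, 218 and 200.2 in LmnB1_6 and 218, 203 and 209 in LmnB1_16. Only mCherry_3 was low, below every library of the other clones. LBR was higher in mCherry_4 than in mCherry_3 by 0.57 (SE 0.06, edgeR adjusted p = 7.19e-07), and between the constructs its log2 fold change of 0.35 missed the threshold (SE 0.12, edgeR adjusted p = 0.0585). Without mCherry_4 replicate 1, 2 or 3 it was 0.42, 0.40 and 0.41 (edgeR adjusted p = 0.0298, 0.0461 and 0.0418). In deposited TPM, TM7SF2 and LBR together stood at 128 ± 0.8298 in mCherry_3, 118 ± 3.36 in mCherry_4, against 111 ± 4.43 in LmnB1_6 and 133 ± 4.56 in LmnB1_16. The sums of the clones ranged from 111 to 133, while the share from TM7SF2 was 43.8% ± 1.38 in mCherry_3, 20.2% ± 1.42 in mCherry_4, against 11.02% ± 1.07 in LmnB1_6 and 20.2% ± 0.877 in LmnB1_16.

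**Figure D2:**
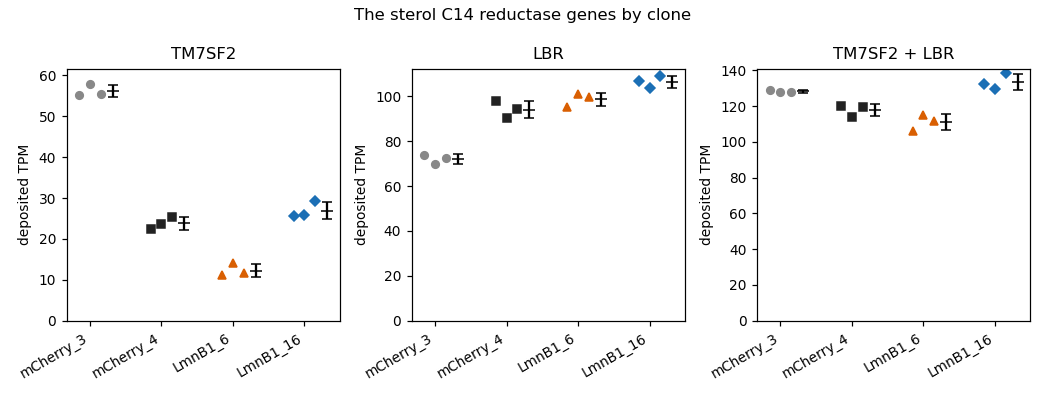
Deposited TPM of TM7SF2, of LBR and of their sum in each library by clone, with the mean and SD (n = 3) beside the points. TM7SF2 is high in mCherry_3 and low in LmnB1_6, LBR is low in mCherry_3, and the sums lie between 106.3 and 138.4.

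The other sterol enzymes showed clone differences in several directions, and their library values were chosen after they were seen. EBP, the sterol isomerase (chromosome X, 48521158 to 48528716, plus strand, GRCh38), measured 28.04, 34.3 and 35.4 CPM in mCherry_3, 33.8, 35.6 and 33.1 in mCherry_4, against 39.2, 42.4 and 38.9 in LmnB1_6 and 20.8, 20.4 and 21.9 in LmnB1_16. The LmnB1 clones lay on opposite sides of the mCherry clones, with no overlap. LmnB1_6 was 1.204-fold higher than the mCherry clones (edgeR adjusted p = 0.00543), LmnB1_16 was 1.59-fold lower (edgeR adjusted p = 5.96e-06), and the contrast between them was -0.93 (SE 0.09, edgeR adjusted p = 2.31e-07). SQLE, which makes squalene epoxide, had clone means of 37.2 ± 1.36 CPM in mCherry_3, 46.997 ± 1.501 in mCherry_4, against 36.4 ± 1.78 in LmnB1_6 and 48.7 ± 3.26 in LmnB1_16. The clones thus formed a low and a high pair, each with 1 clone of either construct, and the construct difference was 0.02 (SE 0.12, edgeR adjusted p = 0.937). SC5D, the sterol desaturase, was highest in mCherry_3 (46.3 ± 2.54 CPM against 35.6 ± 1.96, 32.9 ± 4.1004 and 33.6 ± 1.86 in mCherry_4, LmnB1_6 and LmnB1_16). MSMO1, a C4-demethylation enzyme, was lowest in LmnB1_6 (47.95 ± 6.19 CPM against 73.8 ± 5.25 in mCherry_3, 61.9 ± 5.65 in mCherry_4 and 59.8 ± 5.89 in LmnB1_16). Both missed the threshold between constructs (edgeR adjusted p = 0.0535 and 0.0532). Leaving out single libraries could bring a call, as for SC5D without mCherry_4 replicate 1 and MSMO1 without LmnB1_16 replicate 2 or 3. DHCR7, which saturates the last ring bond of the Kandutsch-Russell branch, was lower in mCherry_4 than in mCherry_3 (log2 fold change -0.26, edgeR adjusted p = 0.00911, or 0.0674 without mCherry_3 replicate 3). CYP51A1, the lanosterol demethylase, and NSDHL and HSD17B7 of the C4-demethylation steps were called in none of the contrasts, with highest-to-lowest ratios of 1.08, 1.14 and 1.18.

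None of the 5 SREBP control genes was called between the constructs with all 12 libraries, where 17.8% of all tested genes were called. SCAP missed the threshold there (log2 fold change -0.24, edgeR adjusted p = 0.0538) and passed it without some single libraries, such as mCherry_4 replicate 1. INSIG1 passed it without clone LmnB1_6. All 5 genes were higher in LmnB1_16 than in LmnB1_6. In that contrast 11 of the 29 genes were called, 9 higher and 2 lower, against 34.4% of all tested genes, 17.8% higher and 16.6% lower. SREBF1 (chromosome 17, 17810399 to 17837002, minus strand, GRCh38), the most abundant of the group by TPM (mean 56.6), measured 109.95, 167 and 167 CPM in mCherry_3, 123, 113 and 118 in mCherry_4, against 96.1, 87.7 and 90.4 in LmnB1_6 and 169, 175 and 158 in LmnB1_16. LmnB1_6 was below every other library and LmnB1_16 overlapped mCherry_3 only. LmnB1_16 exceeded LmnB1_6 1.83-fold (log2 fold change 0.87, SE 0.12, edgeR adjusted p = 1.45e-05). INSIG1, given after its values were seen, measured 18.7, 29.4 and 34.8 CPM in mCherry_3, 39.1, 33.1 and 38.1 in mCherry_4, against 28.2, 31.8 and 25.3 in LmnB1_6 and 48.9, 61.6 and 51.4 in LmnB1_16. The LmnB1_16 libraries were above all others. INSIG1, itself a known SREBP target, was 1.904-fold higher in LmnB1_16 than in LmnB1_6 (log2 fold change 0.93, SE 0.16, edgeR adjusted p = 2.50e-04). SREBF2 was lowest in LmnB1_6 (138 ± 2.82 CPM) and highest in mCherry_3 (182 ± 5.51), with mCherry_4 at 158 ± 3.39 and LmnB1_16 at 164 ± 5.89 between them. SCAP, the sterol sensor, was highest in mCherry_3 (102 ± 1.69 CPM against 81.3 ± 2.62 in mCherry_4, 73.5 ± 1.21 in LmnB1_6 and 81.6 ± 2.26 in LmnB1_16). INSIG2 stood at 16.7 ± 2.16 CPM in mCherry_3, 15.99 ± 2.505 in mCherry_4, against 11.8 ± 1.87 in LmnB1_6 and 16.4 ± 0.117 in LmnB1_16. The LmnB1_16 over LmnB1_6 contrasts of SREBF2, SCAP and INSIG2 were 0.25, 0.15 and 0.49 (edgeR adjusted p = 9.65e-04, 0.03103 and 0.0105). Those of SCAP and INSIG2 depended on the libraries. SCAP lost its call without LmnB1_16 replicate 2 or 3 or LmnB1_6 replicate 1, 2 or 3 (edgeR adjusted p = 0.0681, 0.0716, 0.0636, 0.0677 and 0.0841), and INSIG2 without LmnB1_6 replicate 1 (edgeR adjusted p = 0.0601). With effective length as an offset the adjusted p of INSIG2 was 0.385 (edgeR). In exons, 556 bases of SREBF1 overlap RAI1 on the opposite strand.

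Liver X receptors, the oxysterol sensors known to raise SREBF1 and SCD, and some of their other targets were listed beside this group. Of 6 listed genes 5 were tested and 0 were called between the constructs, where 17.8% of all tested genes were called. NR1H2, the most abundant by TPM (mean 75.3), stood at 91.7 ± 4.41 CPM in mCherry_3, 77.7 ± 4.92 in mCherry_4, against 93.4 ± 5.17 in LmnB1_6 and 76.9 ± 6.33 in LmnB1_16. Between LmnB1_16 and LmnB1_6, 3 were higher (ABCA1, MYLIP and NR1H3, chosen after their values were seen) and 1 was lower (NR1H2, log2 fold change -0.28), where 34.4% of all tested genes were called, 17.8% higher and 16.6% lower. ABCA1, the cholesterol exporter, measured 8.45, 15.4 and 14.9 CPM in mCherry_3, 12.1, 13.02 and 10.4 in mCherry_4, against 5.05, 6.38 and 9.46 in LmnB1_6 and 25.4, 43.7 and 22.1 in LmnB1_16. As with INSIG1, all LmnB1_16 libraries were the highest. ABCA1 was 4.29-fold higher in LmnB1_16 than in LmnB1_6 (edgeR adjusted p = 1.09e-05), with a log2 fold change of 2.10 that was 1.75 without LmnB1_16 replicate 2 (edgeR adjusted p = 2.76e-05). MYLIP, a ubiquitin ligase of lipoprotein receptors, was 3.84-fold higher (edgeR adjusted p = 6.70e-05) at low levels, 1.58 ± 0.319 CPM in LmnB1_6 and 6.02 ± 0.971 in LmnB1_16. NR1H3, the alpha receptor, was 1.55-fold higher (edgeR adjusted p = 0.03402), and its adjusted p was 0.161, 0.0973, 0.0866 and 0.105 without LmnB1_16 replicate 1 or 3 or LmnB1_6 replicate 1 or 2 (edgeR).

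**Figure D3:**
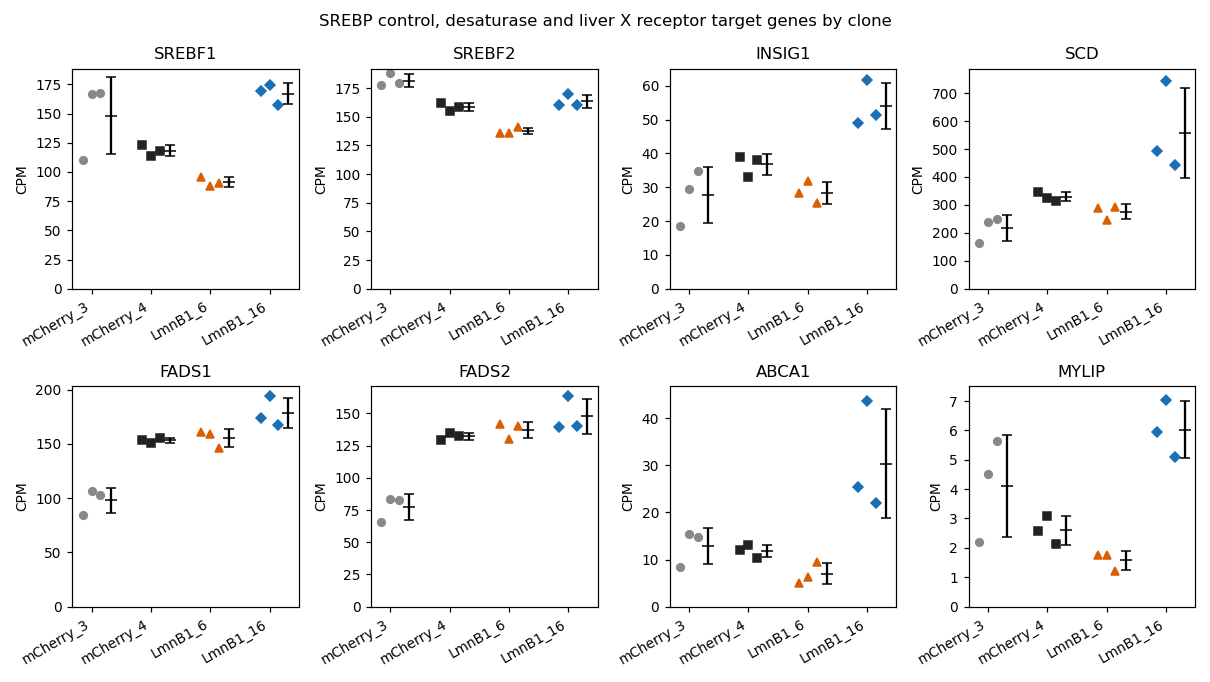
CPM of SREBF1, SREBF2, INSIG1, SCD, FADS1, FADS2, ABCA1 and MYLIP in each library by clone, with the mean and SD (n = 3) beside the points. INSIG1, SCD and ABCA1 are highest in all 3 LmnB1_16 libraries, and FADS1 and FADS2 are lowest in all 3 mCherry_3 libraries.

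STARD4, which carries sterol between membranes and is the only member of its group, measured 73.996, 66.9 and 72.8 CPM in mCherry_3, 77.8, 68.7 and 71.98 in mCherry_4, against 61.2, 63.3 and 64.6 in LmnB1_6 and 53.4, 69.6 and 57.4 in LmnB1_16. All LmnB1 libraries but LmnB1_16 replicate 2 were below all mCherry libraries. STARD4 fell 1.17-fold (log2 fold change -0.23, SE 0.07, edgeR adjusted p = 0.03401). The call was lost without mCherry_3 replicate 1 or 3, mCherry_4 replicate 1 or 3, LmnB1_6 replicate 1 or 2, or LmnB1_16 replicate 1 or 3, with edgeR adjusted p between 0.0512 and 0.0703 and log2 fold changes between -0.23 and -0.19.

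The 5 fatty acid genes all had log2 fold changes above 0 between the constructs, with a median of 0.41 against 0.00 for all tested genes. None of the 5 passed the test, where 17.8% of all tested genes were called. ACLY, which supplies cytosolic acetyl-CoA and is the most abundant of the group by TPM (mean 178), measured 435, 432 and 430.2 CPM in mCherry_3, 476, 506 and 473 in mCherry_4, against 509, 494 and 506 in LmnB1_6 and 445, 488 and 475 in LmnB1_16. The mCherry_3 libraries were the lowest and the other clones overlapped. SCD, the delta-9 desaturase that makes oleic acid (chromosome 10, 100347124 to 100364834, plus strand, GRCh38), measured 165, 238 and 250.1 CPM in mCherry_3, 346, 326 and 315 in mCherry_4, against 289.9, 244 and 294 in LmnB1_6 and 492, 742 and 441 in LmnB1_16. All LmnB1_16 libraries were above all others, and LmnB1_6 lay below mCherry_4 and overlapped mCherry_3 through LmnB1_6 replicate 2. SCD was 2.02-fold higher in LmnB1_16 than in LmnB1_6 (log2 fold change 1.02, SE 0.16, edgeR adjusted p = 1.18e-04) and 1.51-fold above mCherry_3 in mCherry_4 (0.59, SE 0.16, edgeR adjusted p = 0.00916). Without LmnB1_16 replicate 2 the first was 0.76 (edgeR adjusted p = 2.26e-04), and without mCherry_3 replicate 1 the other was 0.43 (edgeR adjusted p = 0.0515). Between the constructs the log2 fold change of SCD was 0.61 (SE 0.27, edgeR adjusted p = 0.124).

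FADS1 and FADS2, the delta-5 and delta-6 desaturases of polyunsaturated chains, are neighbours on chromosome 11 on opposite strands. FADS2 (61792980 to 61867354, plus strand, GRCh38) measured 65.97, 83.9 and 82.9 CPM in mCherry_3, 129, 135 and 133 in mCherry_4, against 142, 130.2 and 140.1 in LmnB1_6 and 139.7, 163 and 140.4 in LmnB1_16. FADS1, given after its values were seen, measured 84.9, 107 and 103 CPM in mCherry_3, 154, 151 and 155 in mCherry_4, against 161, 159.6 and 146 in LmnB1_6 and 174, 194 and 168 in LmnB1_16. For both genes mCherry_3 alone was low and mCherry_4 lay with the LmnB1 clones or just below them. FADS2 was 1.704-fold above mCherry_3 in mCherry_4 (log2 fold change 0.77, SE 0.08, edgeR adjusted p = 2.59e-06), and FADS1 was 1.56-fold higher (0.64, SE 0.08, edgeR adjusted p = 8.67e-06). Between the constructs FADS1 and FADS2 had log2 fold changes of 0.41 and 0.44 (edgeR adjusted p = 0.0681 and 0.0802). FADS1 passed the threshold without some single libraries, such as mCherry_4 replicate 1 or 3. The exons of FADS1 and FADS2 share 490 bases, which is 4.79% of FADS1 and 4.44% of FADS2, so the pair is not fully separate in counts without strand. FASN, the synthase itself, had clone means of 296 ± 29.9, 320.1 ± 20.5, 342 ± 2.76 and 355 ± 38.6 CPM in mCherry_3, mCherry_4, LmnB1_6 and LmnB1_16. Its log2 fold change between the constructs was 0.18 (SE 0.07, edgeR adjusted p = 0.0867).

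Counted over all 29 genes, each clone contrast held calls. Against the mean of the mCherry clones, LmnB1_6 had 17 genes called, 6 higher and 11 lower, where 49.0% of all tested genes were called, 24.4% higher and 24.6% lower. LmnB1_16 had 13, 7 higher and 6 lower, against 33.8% of all tested genes, 17.2% higher and 16.5% lower. These contrasts share the mCherry libraries. The mCherry clones themselves differed in 13 genes, 6 higher and 7 lower in mCherry_4, against 37.4% of all tested genes, 19.9% higher and 17.4% lower. Of the 29 genes these counts are 58.6%, 44.8% and 44.8%, and the 11 genes called between the LmnB1 clones are 37.9%. By role, 4 of the 5 fatty acid genes were higher in mCherry_4 than in mCherry_3 and 0 lower. Against the mCherry clones, 3 of these 5 were higher in LmnB1_6 and 4 in LmnB1_16, with 0 lower in either. Of the 5 SREBP control genes, 4 were lower in LmnB1_6 than in the mCherry clones and 0 higher. In LmnB1_16, 1 of these was lower and 2 were higher. Between the mCherry clones, 3 of the SREBP control genes were lower in mCherry_4 and 0 higher. Of the 11 sterol-step genes, 6 were lower and 1 was higher in LmnB1_6 than in the mCherry clones. In LmnB1_16, 4 were lower and 1 was higher. The mCherry clones differed alike, with 4 of the 11 lower and 1 higher in mCherry_4 than in mCherry_3. Proliferation genes also moved between the clones. The summed level of 8 such genes was 1057 to 1131 CPM in mCherry_3, 2054 to 2250.0 in mCherry_4, against 1995 to 2280.4 in LmnB1_6 and 2266 to 2652 in LmnB1_16, and all 8 were higher in mCherry_4 than in mCherry_3. Their part in the differences of mCherry_3 was not tested.

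**Figure D4:**
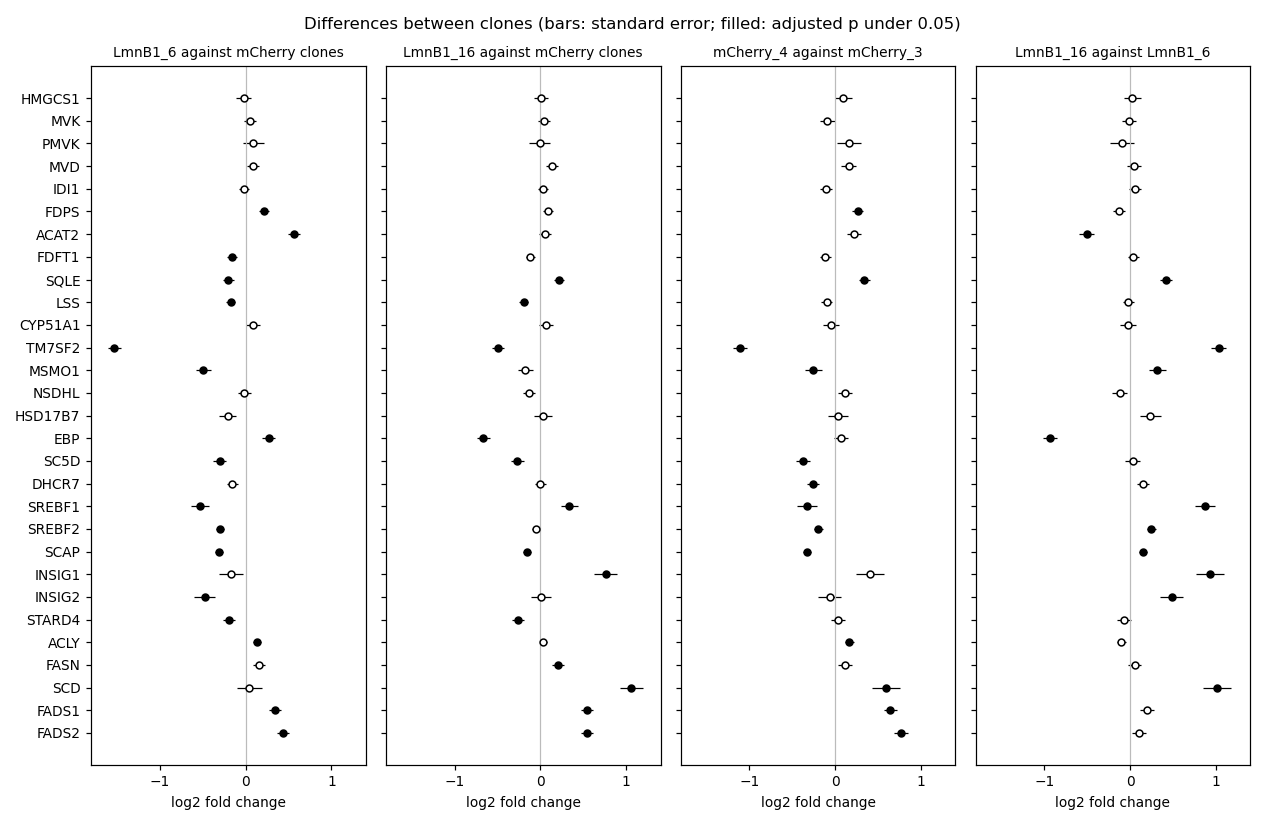
Log2 fold change (bars, standard error) of the 29 genes in the 4 contrasts between clones, with filled points for an edgeR adjusted p under 0.05. TM7SF2 is lowest in LmnB1_6 against the mCherry clones (-1.53) and the 5 SREBP control genes are all filled and above 0 in LmnB1_16 against LmnB1_6.

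In single libraries several of these genes were low or high together. The 2 libraries described were picked after their values were seen. In mCherry_3 replicate 1, 9 of the 29 genes (31.03%) were above the mean of their clone, against 52.03% of all tested genes, with SREBF1, INSIG1 and SCD at 109.95, 18.7 and 165 CPM as the lowest of the clone. In LmnB1_16 replicate 2, 21 of the 29 genes (72.4%) were above the mean of their clone, against 49.7% of all tested genes, with INSIG1, SCD and FASN at 61.6, 742 and 399.6 CPM as the highest. The 18 mevalonate and sterol enzymes had a median log2 deviation from the clone mean of only 0.01 in that library, and of -0.07 in mCherry_3 replicate 1. In the remaining libraries the share of the 29 genes ran from 34.5% (LmnB1_16 replicate 1) to 69.0% (mCherry_3 replicate 2). Without LmnB1_16 replicate 2 the LmnB1_16 over LmnB1_6 difference was 0.84 for SREBF1 and 0.83 for INSIG1 (edgeR adjusted p = 7.78e-05 and 0.00145).

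Other genes of lipid metabolism were read from lists set by function, of which the genes with the smallest adjusted p are named. Of 11 genes of sterol storage and transport 6 were called between the constructs (2 rose and 4 fell in LmnB1), against 17.8% of all tested genes, 8.58% higher and 9.25% lower, with a median log2 fold change of -0.22 against 0.00 for all tested genes. NPC2, which binds cholesterol in the lysosome, was 1.59-fold higher (138 ± 8.52 CPM in mCherry and 219 ± 61.6 in LmnB1, SD, n = 6, edgeR adjusted p = 0.0156). It was highest in LmnB1_6 (274 ± 17.4 CPM against 165 ± 16.7 in LmnB1_16), and its log2 fold change of 0.67 was 0.26 without clone LmnB1_6 (edgeR adjusted p = 0.0697) and 0.60 without clone mCherry_3 (edgeR adjusted p = 0.164). NPC1, its membrane partner, was 1.54-fold lower (102 ± 4.64 and 66.4 ± 20.8, SD, n = 6, edgeR adjusted p = 0.0284). NPC1 was low mainly in LmnB1_6 (47.5 ± 1.09 CPM against 85.3 ± 3.06 in LmnB1_16), and its call was lost without any single library of mCherry_3 or LmnB1_6 (edgeR adjusted p between 0.0537 and 0.0623). OSBPL9, a lipid exchange protein gene, was 1.198-fold lower (edgeR adjusted p = 0.02197, or 0.0553, 0.0584 and 0.0528 without mCherry_3 replicate 2 or 3 or LmnB1_6 replicate 2). Of 19 tested genes of fatty acid supply and elongation, 4 were lower and 0 higher, against 9.25% and 8.58% of all tested genes, with a median of -0.13. FADS3, a desaturase gene beside FADS1 and FADS2, measured 133, 127 and 123 CPM in mCherry_3, 91.9, 96.5 and 87.7 in mCherry_4, against 57.2, 67.5 and 66.6 in LmnB1_6 and 73.7, 59.6 and 75.95 in LmnB1_16. All 6 LmnB1 libraries were below all 6 mCherry libraries, with a log2 fold change of -0.72 (SE 0.12, edgeR adjusted p = 0.00287), whereas FADS1 and FADS2 had values above 0 in the same comparison. SLC25A1, the mitochondrial citrate carrier upstream of ACLY, was 1.16-fold lower (edgeR adjusted p = 0.00864), and ELOVL1, an elongase gene, was 1.13-fold lower (edgeR adjusted p = 0.02096, or 0.0503, 0.0532 and 0.0504 without mCherry_3 replicate 1 or 2 or LmnB1_6 replicate 2).

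Of 15 fatty acid oxidation genes, 3 were lower and 1 was higher in the LmnB1 libraries, against 9.25% and 8.58% of all tested genes, with a median of -0.21. DECR1, a reductase for unsaturated chains, was 1.41-fold lower (edgeR adjusted p = 0.00602). SLC25A20, the mitochondrial carnitine carrier, and CPT2, its partner transferase, were 1.97-fold and 1.42-fold lower (edgeR adjusted p = 0.0222 and 0.0286), and both were highest in mCherry_3 (21.3 ± 1.65 and 32.3 ± 2.201 CPM against 11.3 ± 1.68 and 21.2 ± 1.52 in mCherry_4). Both calls were lost without replicate 1, 2 or 3 of mCherry_3 or replicate 1 or 2 of LmnB1_6 (edgeR adjusted p between 0.0504 and 0.0685), and that of CPT2 also without LmnB1_6 replicate 3 (edgeR adjusted p = 0.0539). Of 12 genes that use isoprenoids, PDSS1 and COQ2 of ubiquinone synthesis were higher (1.38-fold and 1.303-fold, edgeR adjusted p = 0.0246 and 0.02603) and DHDDS of dolichol synthesis was lower (1.18-fold, edgeR adjusted p = 0.0149). Those of PDSS1 and COQ2 were lost without mCherry_3 replicate 2 or 3 or LmnB1_6 replicate 1 or 2, and that of COQ2 also without LmnB1_6 replicate 3 (edgeR adjusted p between 0.0507 and 0.0617). Of 5 other sterol enzyme genes 0 were called between the constructs, where 17.8% of all tested genes were called. The most abundant by TPM (mean 260.2), the electron donor gene CYB5R3, stood at 354 ± 3.73 CPM in mCherry_3, 318 ± 8.19 in mCherry_4, against 359 ± 5.05 in LmnB1_6 and 264 ± 17.8 in LmnB1_16.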

How the data were processed

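mRNA of 12 libraries was quantified per gene. Per the file headers, the authors deposited for each library estimated counts, TPM, gene length and effective length. Per the submitters' processing notes, the tools were STAR, Salmon and DESeq2 (no versions named) and the build was GRCh38 (hg38). The sources used here do not give annotation release, strand or read length. The deposited estimated counts carry no normalization and need not be whole, so they were rounded. The deposited TPM, scaled by effective length, served to compare genes and as an alternative (log2 of TPM + 0.5).

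Symbols were matched by Ensembl identifier, and positions come from GENCODE 29. Genes kept by filterByExpr (edgeR 4.0.16, R 4.3.3, minimum count 10, minimum total 15, grouped by clone) were tested with glmQLFTest and TMM factors (0.948 to 1.06), with Benjamini-Hochberg adjustment over all 15388 genes. The construct fit set 6 libraries against 6 (biological coefficient of variation 0.262). Another fit had the 4 clones as groups (0.0842). A standard error is the absolute log2 fold change divided by the root of the F statistic. Alternatives used DESeq2 1.42.0 (size factors, Wald test), limma 3.58.1 (voom, TPM, clone as a random effect), effective length offsets, no filter, a replicate block, counts summed per clone, and left-out libraries or clones.

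The 29 genes and the other lists were chosen with earlier results of these data known. The rule for named genes takes genes of the list called between the constructs, the 2 with the largest called difference within each construct, the most abundant of each role, and up to 3 genes of each other list called between the constructs with the smallest adjusted p, or the most abundant where none was called. LBR and LMNB1 were always given. Library values of other genes carry a mark that they were picked after being seen. A result of another list is not reported here.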

Additional observations from a re-analysis of the deposited data

Results flagged for a closer look

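Levels of each of the 29 genes were examined for a library far from the other 5 of its construct, in 58 groups of 6 libraries. Chance alone marks about 5% of groups of 6 independent libraries. Each group here held 2 clones, so that rate need not apply, and a gap between the clones can hide a far library. PMVK and EBP were lowest in mCherry_3 replicate 1, at 13.7 and 28.04 CPM, and FASN and FADS2 were highest in LmnB1_16 replicate 2, at 399.6 and 163 CPM. These 4 values came from the libraries in which several other genes of the list were also low or high.

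The LmnB1 clones, each set against the same mCherry libraries, differed in 11 of the 29 genes (edgeR adjusted p under 0.05 for LmnB1_16 over LmnB1_6, where 34.4% of all tested genes passed). The difference between them on the log2 scale was 1.03 for TM7SF2, 1.02 for SCD, 0.93 for INSIG1, 0.87 for SREBF1, 0.49 for INSIG2, 0.42 for SQLE, 0.32 for MSMO1, 0.25 for SREBF2 and 0.15 for SCAP. It was -0.93 for EBP and -0.51 for ACAT2. The difference of MSMO1 missed the threshold without LmnB1_16 replicate 2 or 3 or LmnB1_6 replicate 1 or 2 (edgeR adjusted p = 0.0775, 0.0506, 0.105 and 0.0579).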

How the results depend on the processing

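The count of 3 genes called between the constructs was the least stable value. It was 9 with the DESeq2 test (3 higher, 6 lower), 1 without the filter on low counts, 0 without clone mCherry_3, 11 without clone mCherry_4, 9 without clone LmnB1_16, 0 with counts summed per clone (0 genes at an unadjusted p under 0.05) and 0 with limma and clone as a random effect (smallest adjusted p = 0.124, with 4 genes under an unadjusted 0.05). Without clone LmnB1_6 it was again 3, but the genes were EBP, INSIG1 and SCD. Leaving out each library in turn gave 0 to 9 genes. For LmnB1_6 against the mCherry clones this range was 13 to 19, for LmnB1_16 against the mCherry clones 10 to 14, for mCherry_4 against mCherry_3 10 to 15 and for LmnB1_16 against LmnB1_6 8 to 13. The count of 13 for LmnB1_16 against the mCherry clones was 8 with limma on log2 of the deposited TPM, where the median of all tested genes was -0.01. On that scale the median of mCherry_4 over mCherry_3 was -0.11. The count of 0 genes whose libraries separated the constructs was 1 by TPM. With the replicate number as a block, 0 genes were called between the constructs (edgeR adjusted p = 0.0582 for LSS, 0.0698 for TM7SF2 and 0.0654 for STARD4, 11 genes at an unadjusted p under 0.05). The labels do not say what the numbers share, and not every pair deviated together. Libraries of different clones with the same number had correlated deviations of -0.0541 to 0.181 (18 pairs, median 0.0202) and those with different numbers -0.101 to 0.0923 (36 pairs). The highest were replicate 3 of mCherry_4, LmnB1_6 and LmnB1_16 among themselves (0.119, 0.181 and 0.122), and mCherry_3 showed no such pairing (-0.0541 to 0.0478 with its own numbers). The block moved no other count by more than 1.5 times. EBP changed from -0.12 to 0.27 between the constructs without clone LmnB1_16 (edgeR adjusted p = 0.0282), ABCA1 from 0.59 to -0.82 (edgeR adjusted p = 0.0239) and MYLIP from 0.17 to -1.097 (edgeR adjusted p = 0.0397), which follows from which clone is left. Over the named genes and the 5 contrasts, settings other than leaving out a library kept the side of the threshold in 1816 values. These settings lost the call in 139, gained it in 51 and changed direction in 3 where either fit called the gene. Leaving out a library did so in 2742, 154, 44 and 0. A change of direction without a call in either fit is counted as kept. For example, SCD in LmnB1_6 against the mCherry clones went from 0.04 to -0.04 without mCherry_3 replicate 1. The cause was not tested.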
